A study of Bos taurus with 10 samples.

Results

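The 5 cattle blood pools in this comparison came from animals on a mineral supplement meant to increase copper. They were chosen by their titles (Copper supplementation 1 to 5) and are 5 of the 10 pools in the series; the other 5 are controls without the supplement. Each pool mixed blood of 3 animals, and poly(A) RNA of each was sequenced as 1 stranded library. Breed, sex, age, herd, day of sampling, dose and duration of the supplement are not stated, and the labels do not say whether pools came from separate herds or days, so p-values measure the spread between these pools only. The question was whether transcripts in blood followed the copper level within the supplemented animals, over the upper range of copper.

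Copper is a trace metal that enzymes such as cytochrome c oxidase and the cytosolic superoxide dismutase need as a cofactor. Cells take it up through a membrane transporter, pass it on by chaperone proteins and export it with copper-pumping ATPases, while metallothioneins bind any surplus. Blood holds neutrophils, lymphocytes, monocytes, platelets and red cells, so that a level in blood RNA is an average over cell types, and a smaller number of cells of a type and less RNA per cell cannot be told apart.

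The average copper level recorded for each pool, with no unit stated, was 95.48 in pool 1, 185.99 in pool 2, 183.61 in pool 3, 342.42 in pool 4 and 330.75 in pool 5. The 5 pools therefore stood at 3 levels, 1 with a single pool and 2 with a pair of pools each, and spanned 1.84 doublings of copper. Pool 1 alone made up the low end and had a leverage of 0.74 on the slope, against 0.21 to 0.44 for the others. The controls ranged from 23.42 to 95.61, so that the highest control met pool 1. Gene counts summed to between 25655261 and 28033918 in the 5 libraries, over 24616 Ensembl genes, of which 13205 had enough counts to be tested. No gene identifier in the files comes with a symbol. Genes are therefore given by identifier, and neither copper-handling genes nor blood cell markers could be looked up, so that the labelled tissue was not checked against markers.

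No gene passed the test for a slope on log2 copper within the supplemented pools (0 of 13205, 0%; edgeR's quasi-likelihood test, adjusted p threshold 0.05), with a smallest adjusted p of 0.784. A nominal p (not adjusted for the number of genes) below 0.05 was found for 538 genes (4.07%), fewer than the 660.2 of an even spread of p-values. In this set 325 had a positive slope (2.46%) and 213 a negative slope (1.61%). The median slope over all genes was 0.00 log2 units per doubling of copper. DESeq2's Wald test, run on these counts, called 19 genes (0.163% of the 11669 to which it gave an adjusted p), 9 of them with a positive slope and 10 with a negative one, and limma's voom called 0, with 520 at a nominal p below 0.05. All 19 had a nominal p below 0.05 in edgeR. Both tests used the same pools and counts, so this overlap is no independent check.

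Leaving out single pools moved these counts. Without pool 4 the number of genes at a nominal p below 0.05 in edgeR was 230, and without pool 5 it was 315. Without pool 1 it was 386, and the balance of directions turned, with 176 positive and 210 negative slopes. Without pool 3 it was 797, and 4 genes, all with a negative slope, passed the adjusted threshold (smallest adjusted p = 0.0201 in edgeR, against 0.784 with all 5 pools). Leaving out pool 1, 2, 4 or 5 gave 0 genes past that threshold.

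The precision of the slopes set what could be seen. The median standard error was 0.16 log2 units per doubling. Taken gene by gene, the 95% interval left out a 2-fold or larger change per doubling for 11396 genes (86.3%) and a 1.5-fold or larger one for 8183 genes (62.0%). The pools spanned 1.84 doublings, so over the whole range these limits stand for larger changes. Precision depended on abundance, given as CPM (a gene's share of its library's counts on a common scale, after scaling between libraries). For the 1894 genes over 100 CPM the median standard error was 0.12, and for the 1462 genes under 1 CPM it was 0.41. The share of genes at a nominal p below 0.05 was 5.95% under 1 CPM, 4.34% from 1 to 10 CPM, 3.68% from 10 to 100 CPM and 3.38% over 100 CPM.

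In each direction the 2 genes of smallest nominal p are described here, although none passed the adjusted threshold in edgeR. ENSBTAG00000019018 had the smallest p of all. Its level was 108 CPM in pool 1, 143 in pool 2, 193 in pool 3, 303 in pool 4 and 263 in pool 5. Both pools at the middle level of copper lay above pool 1 and below both pools at the high level. The mean of the high level was 2.61 times the value of pool 1, and the slope was 0.77 log2 units per doubling (SE 0.13, edgeR adjusted p = 0.784). DESeq2 gave it a slope of 0.77 (SE 0.14) at an adjusted p of 0.000252, and its adjusted p was between 0.000252 and 1.00 over all alternatives (edgeR, DESeq2 and limma). In the controls, at lower copper, the same gene lay between 82.4 and 199 CPM, with 146 ± 50.6 (SD, n = 5). The lowest of the controls was control pool 5, whose copper was closest to that of pool 1.

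ENSBTAG00000017005 was a scarce transcript, with 1 count in pool 1, 2 in pool 2, 7 in pool 3, 53 in pool 4 and 16 in pool 5. These counts were also ordered by level, from 0.034 CPM in pool 1 through 0.07 and 0.266 CPM in pools 2 and 3 to 2.14 and 0.598 CPM in pools 4 and 5. Its fitted slope of 3.29 (SE 0.64, edgeR adjusted p = 0.784) rests on these few reads, and the pools at nearly the same copper differed widely from each other. DESeq2 gave no adjusted p for this gene. Controls reached 1.66 CPM, in control pool 2, and the other 4 controls lay between 0.085 and 0.514 CPM.

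ENSBTAG00000006130 was highest in pool 1, at 7.52 CPM, and lowest in pools 4 and 5, at 1.94 and 1.83 CPM, with 3.53 and 4.10 CPM in pools 2 and 3. The levels did not overlap, and pool 1 was 3.98 times the mean of the high level. The slope was -1.10 (SE 0.20, edgeR adjusted p = 0.784), and DESeq2 gave an adjusted p of 0.00677, with a range over all alternatives of 0.00677 to 1.00 (edgeR, DESeq2 and limma). Controls lay between 1.92 and 3.78 CPM, at 2.52 ± 0.75 (SD, n = 5), so that pool 1 was above every control.

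ENSBTAG00000010057 separated pool 1 from the rest and showed little change between the other levels. Pool 1 had 54.0 CPM, and pools 2 to 5 had 16.2, 12.5, 11.5 and 13.5 CPM. The slope of -1.09 (SE 0.20, edgeR adjusted p = 0.784) became -0.23 (SE 0.30, edgeR adjusted p = 0.999) without pool 1. DESeq2 gave an adjusted p of 0.00677, and without pool 3 the edgeR adjusted p was 0.0201, with a range over all alternatives of 0.00677 to 1.00. The controls for this gene spanned 16.2 to 73.5 CPM, a range that holds the value of pool 1. The lowest of them, at 16.2 CPM, was control pool 5, whose copper was closest to that of pool 1.

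**Figure D1:**
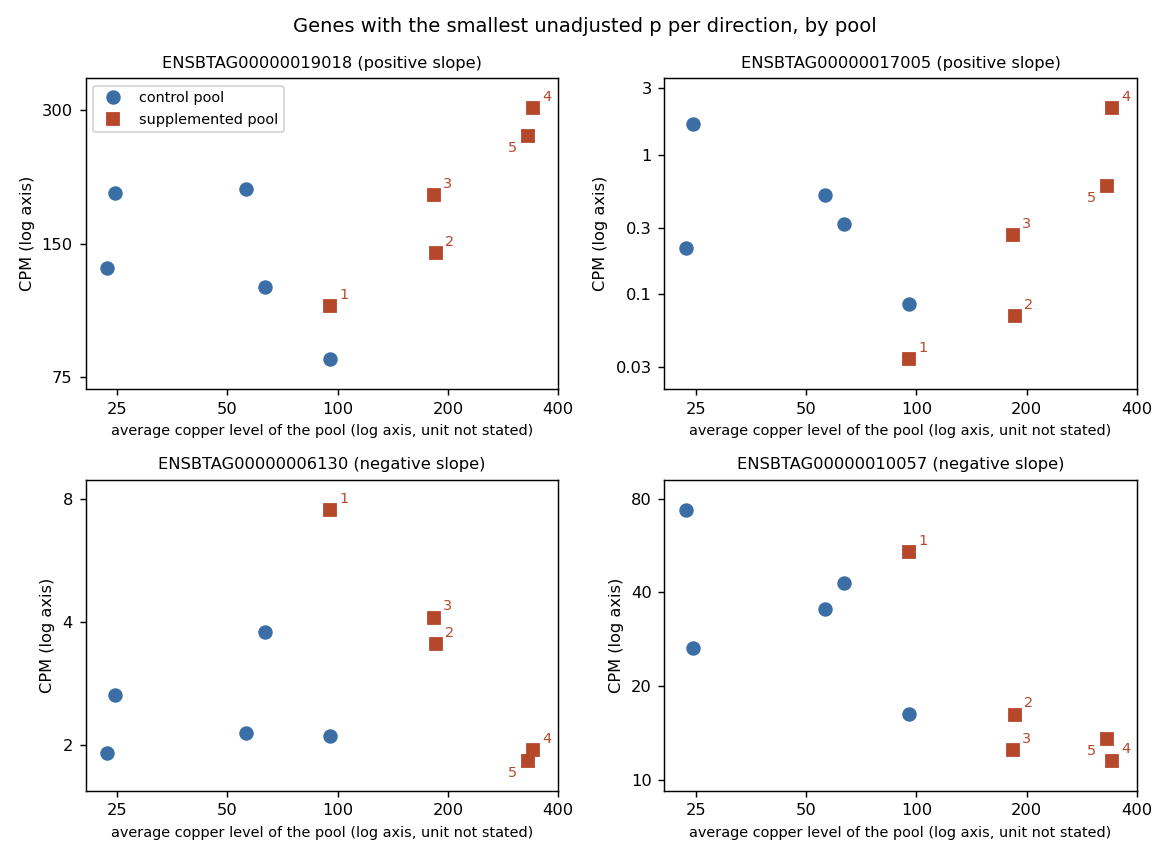
Level of 4 genes in each of the 10 pools (CPM, log axis) against the average copper level of the pool (log axis, unit not stated), with control pools as blue circles and supplemented pools as red squares marked by pool number. ENSBTAG00000019018 runs from 108 CPM in pool 1 to 303 CPM in pool 4, while ENSBTAG00000010057 is at 54.0 CPM in pool 1 and at 11.5 to 16.2 CPM in the other supplemented pools.

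Numbers of genes were then set against those from other assignments of the copper levels. The reason was that the pools also differed from each other along a broad axis that copper did not order. Pools of near-equal copper were taken as sharing a level, which leaves 30 distinct ways to place 5 pools on the 3 levels. Each fit used the mean log2 copper of a level. The labelled numbers therefore differ from the 538 in edgeR and 19 in DESeq2 found with each pool's own copper. With the labelled levels, 541 genes had a nominal p below 0.05 in edgeR, and 12 of the other 29 assignments gave at least as many (exact permutation test, one-sided p = 0.433, adjusted over 4 such tests 0.667). The assignments ranged from 120 to 2902 genes, with a median of 452. DESeq2 called 17 genes with the labelled levels, and 14 other assignments gave at least 17 (exact permutation test, one-sided p = 0.50, adjusted 0.667). DESeq2 called at least 1 gene in 29 of the 30 assignments and up to 923. In edgeR, 3 of the 30 assignments gave any gene past the adjusted threshold, and the labelled one was not among them. The smallest p that 30 assignments allow is 0.0333.

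A rank measure that needs no model gave a like position. A gene was called ordered where both middle pools lay on the same side of pool 1 and both high pools lay beyond them. There were 401 genes ordered upward (3.04%) and 338 ordered downward (2.56%), 739 in all. Among the 29 other assignments, 14 gave at least 739 ordered genes, and all 30 ranged from 304 to 2543 (exact permutation test, one-sided p = 0.50, adjusted 0.667). Of the ordered genes, 246 were also among the 538 at a nominal p below 0.05, which is 33.3% of the ordered genes and 45.7% of the 538.

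**Figure D2:**
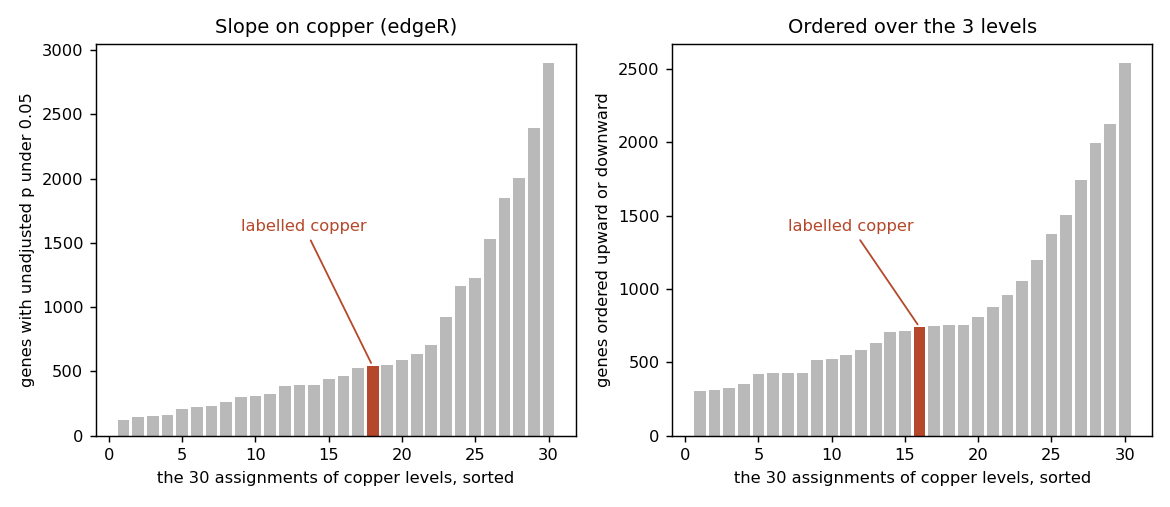
Number of genes with a nominal (unadjusted) p below 0.05 for the slope in edgeR (left) and number of genes ordered over the 3 levels (right) for each of the 30 assignments of copper levels to the 5 supplemented pools, sorted by height, with the labelled assignment in red. The labelled assignment stands at 541 and 739 genes, inside ranges of 120 to 2902 and 304 to 2543.

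The assignment with the most genes, 2902 in edgeR and 2543 ordered, placed pool 2 at the lowest level, pools 1 and 5 at the middle and pools 3 and 4 at the highest. That is also the order of the pools on the first principal component of their profiles, which held 38.9% of the variance between them. The scores were -34.33 for pool 2, -17.75 for pool 1, 3.03 for pool 5, 22.07 for pool 4 and 26.98 for pool 3. Pools 2 and 3, with near-equal copper, stood at opposite ends of this axis. Both pools at the high level scored above pool 1 on it, so the axis was not fully separate from copper. The second component, with 26.0% of the variance, had its highest scores in the pools at the high level, 28.51 in pool 4 and 8.71 in pool 5. The scores of pools 2, 1 and 3 on it were -0.19, -7.53 and -29.50, so that the single pool at the low level lay between both middle pools. The scaling factors of the libraries (TMM factors) moved with the first axis, at 1.11 and 1.04 for pools 2 and 1, 1.00 for pool 5, and 0.92 and 0.94 for pools 4 and 3, and their part in these counts was not tested. With the first component as a covariate, edgeR called 1 gene for the slope, with a positive slope, and 718 genes had a nominal p below 0.05. That gene was none of the 4 named above.

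Near-equal copper did not go with closer whole profiles. Pools 2 and 3 had the largest share of genes over 2-fold apart of all 10 pairs, 8.57% (1132 genes), and a distance of 0.60 log2 units (root mean square over genes). Pools 4 and 5 had 5.41% and a distance of 0.48. Between pool 1 and the high level the shares were 5.98% for pools 1 and 4 and 4.87% for pools 1 and 5. From pool 1 to the middle level they were 3.58% for pools 1 and 2, the smallest of the 10 pairs, and 5.87% for pools 1 and 3. From the middle to the high level they were 7.6% for pools 2 and 4, 4.91% for pools 2 and 5, 5.87% for pools 3 and 4 and 5.56% for pools 3 and 5. Each share compares 2 libraries and has no replicate check. The mean distance of the 2 pairs at near-equal copper was 0.54 log2 units, and that of all 10 pairs was 0.51, and 12 of the 15 ways to form 2 such pairs, the real one included, gave a distance as small (exact permutation test, one-sided p = 0.80, adjusted 0.80).

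**Figure D3:**
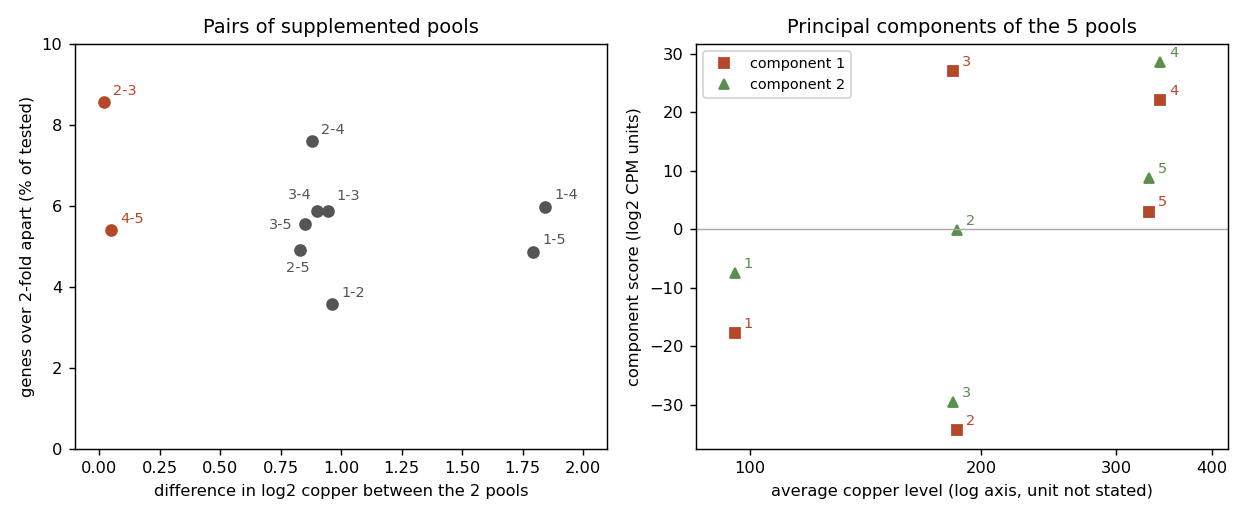
Left, share of tested genes over 2-fold apart for each pair of supplemented pools (percent) against the difference in log2 copper, with pairs of near-equal copper in red. Right, scores of the 5 pools on the first component (red squares) and the second (green triangles) against copper (log axis, unit not stated); pools 2 and 3 lie at -34.33 and 26.98 on the first component, and their pair has the highest share at left, 8.57%.

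Slopes in the supplemented pools were last compared with those in the controls, which share no pool with them. In the control pools alone, 0 of 13161 genes (0%) passed an adjusted p of 0.05 in edgeR, and 1098 (8.34%) had a nominal p below 0.05. The difference of the slopes, supplemented minus control, was tested in 1 model over all 10 pools. No gene passed (0 of 13496, 0%, edgeR, smallest adjusted p = 0.281), and 1741 genes (12.9%) had a nominal p below 0.05, more than the 674.8 of an even spread. The difference was not set against other assignments of the copper levels. Within the supplemented pools alone, the 30 assignments gave 120 to 2902 such genes for the slope. For the difference, limma's voom called 0 genes. DESeq2 called 146 of the 13496 genes it fitted, 113 with a higher slope in the supplemented pools and 33 with a lower one. Here the base is genes fitted, whereas for the slope alone it was genes given an adjusted p. Of the 13496 genes, 1923 had a nominal p below 0.05 in DESeq2, 984 with a higher and 939 with a lower slope in the supplemented pools. The edgeR count of 1741 fell to 1108 without control pool 2, 1105 without supplemented pool 1 and 888 without supplemented pool 4. So no gene's slope was shown by edgeR to be particular to the supplemented pools.

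For most genes the slope had opposite signs in the 2 groups. Of 12982 genes tested in both, 4121 (31.7%) had the same sign. Among genes at a nominal p below 0.05 in the supplemented pools, 58 of 309 with a positive slope (18.8%) and 53 of 207 with a negative slope (25.6%) had the same sign in the controls. Genes are not independent of each other, and these shares carry no test. The first component of all 10 pools held 33.5% of the variance, and copper did not order it in either group. Its scores were 13.37 in supplemented pool 1, -15.83 in pool 4 and -3.15 in pool 5. Supplemented pools 2 and 3, at near-equal copper, stood at 28.63 and -24.34. Control pools 1 and 2 had -16.83 and -11.86, and control pool 5 had 18.73. Control pools 3 and 4, with copper of 56.18 and 63.37, stood at -30.78 and 42.07. From the low to the high end of copper, scores thus fell in the supplemented pools and rose in the controls. The part of this axis in the shares was not tested.

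The named genes differed in this respect. ENSBTAG00000019018 had a slope of -0.34 (SE 0.20) in controls, and its slope difference was 1.11 (SE 0.27, edgeR adjusted p = 0.281). ENSBTAG00000017005 had -1.30 (SE 0.55) in controls and a difference of 4.57 (SE 0.99, edgeR adjusted p = 0.281). For each of these 2 genes the lowest value of the series was in 1 of the 2 pools where the copper ranges met, control pool 5 or supplemented pool 1. ENSBTAG00000006130 had 0.10 (SE 0.25) in controls and a difference of -1.20 (SE 0.31, edgeR adjusted p = 0.291). ENSBTAG00000010057 had a negative slope in both groups, -0.59 (SE 0.27) in controls, and a difference of -0.50 (SE 0.40, edgeR adjusted p = 0.622). None of the 4 differences passed the adjusted threshold. The 4 genes were picked for a small p of the slope in the supplemented pools, and the difference reuses those pools. Large differences were therefore favoured by the choice of genes.

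**Figure D4:**
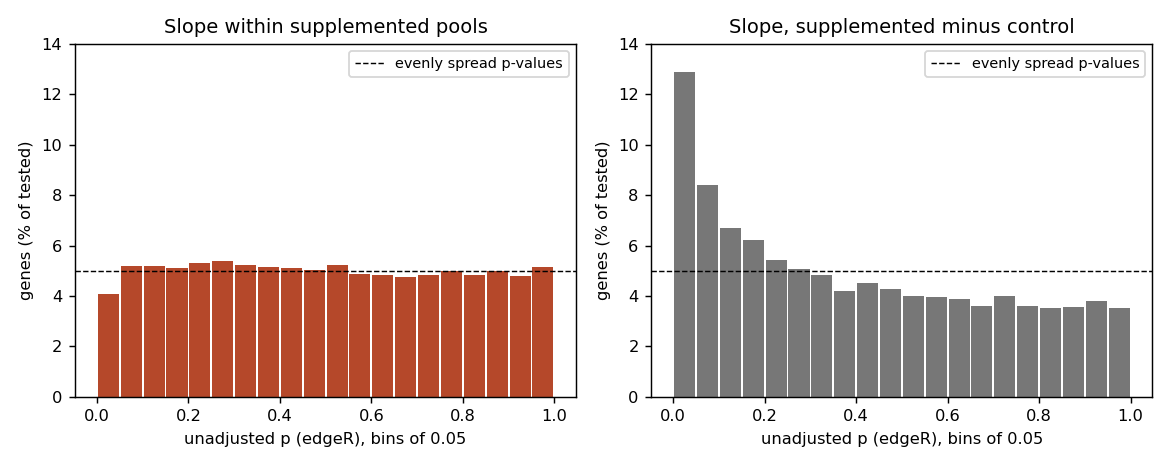
Share of tested genes (percent) in each bin of unadjusted p (edgeR, bins of 0.05) for the slope within the supplemented pools (left) and for the slope difference, supplemented minus control (right), with the dashed line at an even spread. The first bin holds 4.07% of genes at left and 12.9% at right, and no gene of either test passed an adjusted p of 0.05.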

How the data were processed

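The authors deposited whole-number read counts per Ensembl gene for each pool, with no normalization, as an unstranded column and a column per strand. The submitters' processing notes name STAR 2.5.1b, HTSeq and the build UMD3.1; what each was used for, the annotation and any filters are not stated there. Counts of the fourth column were used, which held 97.5 to 97.8% of the counts of both strand columns in the supplemented pools. The 4 rows that name no gene (36.6 to 41.2% of reads there) were left out; multimapping reads are not in the gene counts, so near-identical paralogs are under-counted.

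Genes were kept with filterByExpr (minimum count 10, by the model), scaled with TMM and fitted with edgeR 4.0.16 (quasi-likelihood, R 4.3.3), with Benjamini-Hochberg adjustment over all tested genes. The fit had 3 residual and 7.33 prior degrees of freedom. Standard errors were computed from unshrunken slopes and their F statistics. Components and distances used log2 CPM with a prior count of 2; CPM of named genes were scaled over the 10 pools. Alternatives used DESeq2 1.42.0 and limma 3.58.1. The slope fit was tested on simulated data. Reads carry no molecular identifiers, so PCR copies are counted as separate reads. No 2 supplemented pools were the same library (chi-square per degree of freedom at least 21.4).

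The comparison, its rule, the 23 gene lists and the tests were chosen with earlier results of these data known. The rule named the first 2 identifiers per direction by smallest p. The reference table of 37063 genes (ARS-UCD2.0) holds 0 of the identifiers, so the lists, symbols and sequences were not used here.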

Additional observations from a re-analysis of the deposited data

Results flagged for a closer look

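Among 22 groups of 5 values examined (library measures and component scores of the supplemented pools, and the 4 named genes in both groups of pools), 5 held a value far from the others; chance alone sets apart about 5% of groups, and the named genes had been picked for large differences between pools. The number of genes with any count was 15775 in supplemented pool 3 and 15910 to 15936 in the other 4. Pool 5 had a score of 32.04 on the third component, which held 19.9% of the variance, where the others had -15.29 to -2.62. ENSBTAG00000017005 was at 2.14 CPM in supplemented pool 4, against at most 0.598 CPM in the other 4, and at 1.66 CPM in control pool 2, against at most 0.514 CPM in the other controls. ENSBTAG00000010057 was at 54.0 CPM in supplemented pool 1, against 11.5 to 16.2 CPM in the other 4.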

How the results depend on the processing

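For the slope, 13 of 16 alternatives gave 0 genes past the adjusted threshold; DESeq2 gave 19, the first component as covariate 1, and leaving out 1 pool 0 to 4. Genes at a nominal (unadjusted) p below 0.05 numbered 230 to 797 with 1 pool left out and 321 with the 3 levels as a factor, an alternative added after seeing the data, as were the count of 538 with each pool's own copper, DESeq2 over the 30 assignments and the nominal count for the slope difference; the cause was not tested. The 3 alternatives for ordered genes gave 740 to 892. For the slope difference, 16 of 17 alternatives gave 0 genes and DESeq2 gave 146 (leaving out 1 pool gave 0 throughout), and the count at a nominal p below 0.05 was 888 to 2331 with 1 pool left out. Pool numbers 1 to 5 occur in both groups. With the number as a replicate block, 0 genes passed for the difference, and 2433 lay at a nominal p below 0.05. Across genes, the deviations of pools with the same number had correlations from -0.28 to 0.42, and number 3 alone was closest to its own. The labels do not say whether pools of the same number belong together, and these correlations cannot decide it. The 4 named slopes kept their sign under every alternative that tested them. These genes were picked for small p in the same pools, and the alternatives reuse their counts, so kept signs are no independent check. ENSBTAG00000017005 was not tested without pool 4, without pool 5 or with the filter over all 10 pools. The list medians were not run, since no symbols were at hand. Without pool 1, the only pool at the low end, the slopes were 0.86 (SE 0.26) for ENSBTAG00000019018, 3.54 (SE 0.92) for ENSBTAG00000017005, -1.17 (SE 0.44) for ENSBTAG00000006130 and -0.23 (SE 0.30) for ENSBTAG00000010057.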
